A study of Mus musculus with 1 sample.

Results

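*Epas1*, *Hif1a*, *Hif3a*, *Arnt*, *Egln1*, *Egln3*, *Ndufa4l2* and *Pdk1* are 8 genes of the oxygen-sensing pathway, taken by symbol from the 32285 features of 1 single-cell RNA sequencing library of the mouse adrenal medulla. All 8 symbols were found, each in 1 row. Wild-type mice were taken at postnatal day 15, and the medullae of 10 adrenals from 5 animals of both sexes were pooled after most of the cortex had been trimmed off by hand. Of the suspension, 10000 viable cells were loaded. No mouse was treated or exposed to a changed oxygen level, so the values describe resting tissue after enzymatic dissociation. Pooling leaves 1 sample with no replicate. For that reason no test was made, and the 95% intervals given with each value cover counting error only.

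Cells sense oxygen through prolyl hydroxylases, which need oxygen to mark the alpha subunits of the hypoxia-inducible factors (HIF) for destruction by way of the von Hippel-Lindau protein. When oxygen falls, the alpha subunit escapes, pairs with a beta subunit of the ARNT family and switches on genes for glycolysis, blood vessel growth and altered respiration. The adrenal medulla in early life and the related carotid body are known for an acute response to hypoxia. Both are also known for tumours that carry lesions in this pathway. HIF proteins are controlled mainly by their stability, and transcript counts do not measure it.

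Of 11214 barcodes with 500 to 33809 unique molecular identifiers (UMIs) each, 10139 cells passed quality control, with a median of 3567 UMIs. Levels are UMIs of the gene per 1000000 UMIs of a class of cells (CPM), and classes are named with "-like" because they rest on marker genes. Chromaffin cells, which make the catecholamines, formed an adrenaline class of 1670 cells with *Pnmt*, a noradrenaline class of 388 cells and a cycling class of 135. The cycling class also carried cortical transcripts, with 5 of 8 cortex markers in at least 25% of its cells and a sum of 2261 CPM against 183 CPM in adrenaline cells, and 12.6% of its cells were called doublets. Their part in its levels was not tested. A further 414 transitioning-like cells had chromaffin markers together with those of sustentacular cells, the glia-like supporting cells of the medulla. Cells with the 4 sustentacular markers and few chromaffin transcripts formed 1 cluster of 179 cells. Its 10 leading genes by fold held *Lgi4* and *Cdh19*, which are among those 4 markers, and *S100b*, which is not. Its median of 1149 UMIs was low beside that of all cells, and it is called the glial-marker cluster for caution. It also had 2 of 6 fibroblast markers in at least 50% of its cells (2198 CPM in sum). Although the tissue is labelled medulla, 3355 cells were cortex-like, and of these 1693 were X-zone-like (the transient inner cortex of young mice), 907 fasciculata-like and 755 lay in a cluster left unnamed, with 3 of 4 fasciculata markers in at least 50% of its cells but *Ecrg4*, *Caln1*, *Ly6d* and the outer-zone gene *Wnt4* as leading genes. The remaining classes were 1750 endothelial-like, 626 macrophage-like, 89 fibroblast-like, 360 cycling cortex-like and 400 cycling endothelial-like cells. The fibroblast-like class was mixed, with all 8 endothelial markers in at least 25% of its cells. These summed to 4388 CPM, against 3208 CPM for the 6 fibroblast markers. Their part in the levels of this class was not tested. Another 773 cells (7.62%) were in none of these 13 classes.

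*Ndufa4l2* was the most medullary of the 8. The 4 classes with chromaffin markers held 25.7% of the cells and 89.0% of the 15841 *Ndufa4l2* UMIs. The same 4 classes held 28.2% of the *Epas1* UMIs and 3.57% of the *Egln3* UMIs, of which 46.4% came from endothelial-like cells.

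**Figure D1:**
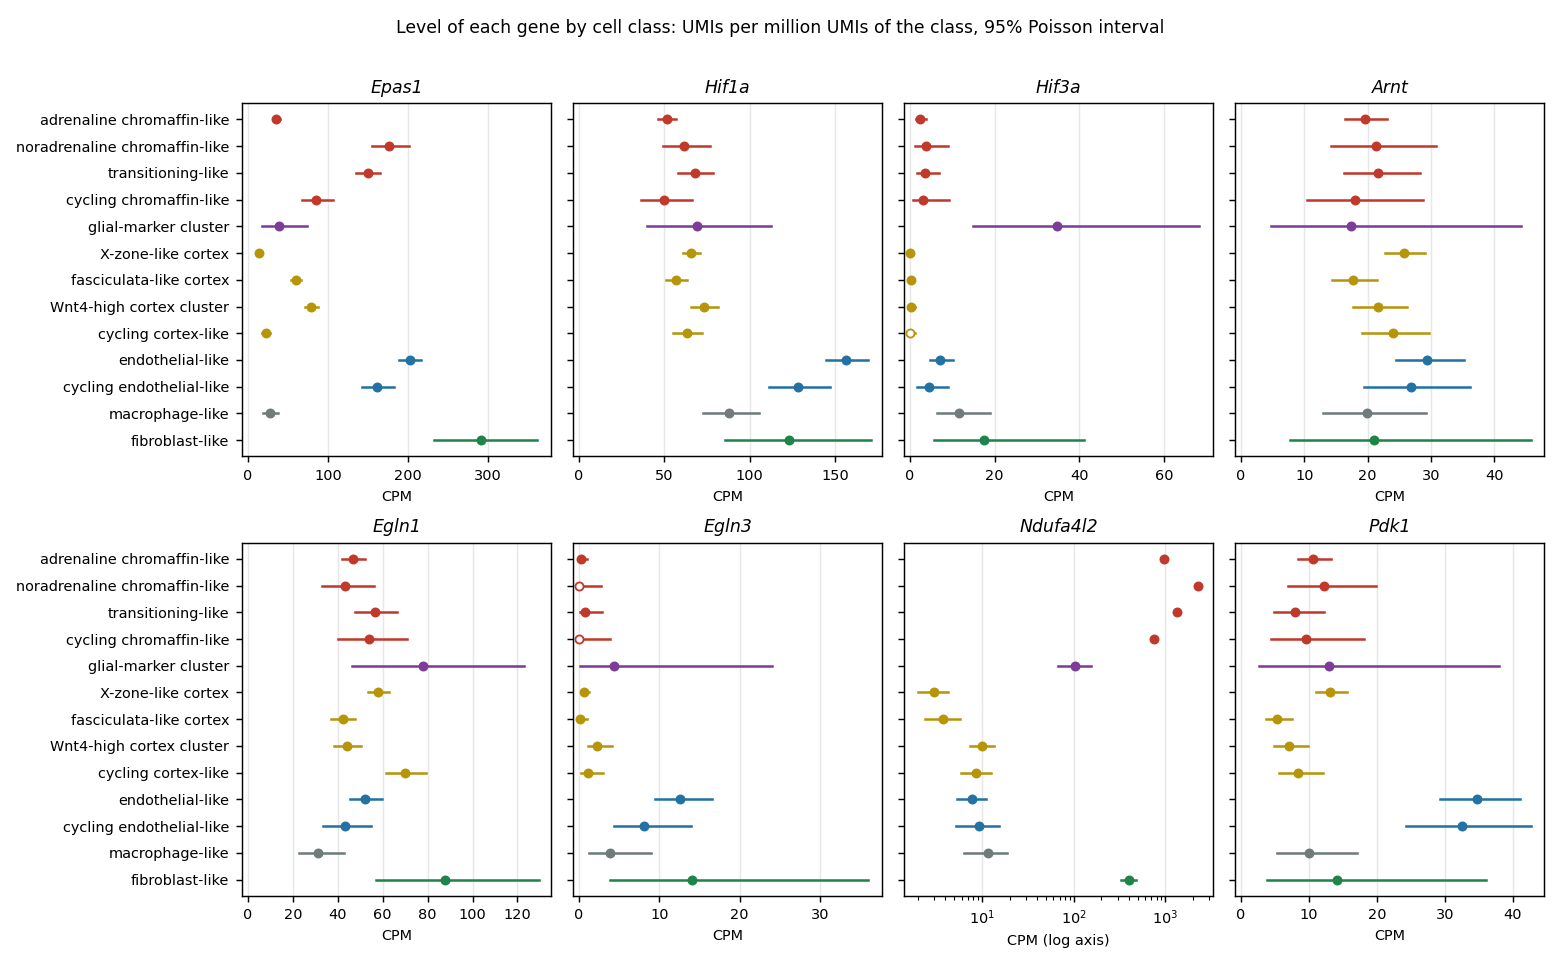
Level of each of the 8 genes (x axis, CPM, log axis for *Ndufa4l2*) in 13 cell classes (rows). Points are UMIs of the gene per 1000000 UMIs of the class, lines are 95% Poisson intervals and open points mark 0 UMIs. *Ndufa4l2* lies between 741 and 2254 CPM in the 4 classes with chromaffin markers, and *Epas1* is 177 CPM in noradrenaline against 35.7 CPM in adrenaline chromaffin-like cells.

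The alpha subunits were compared first. *Epas1* (chr17:86753700-86833410 in GRCm38) codes for HIF-2α, the form best known from chromaffin cells, endothelium and kidney. In chromaffin cells it differed with the catecholamine class. There were 232 *Epas1* UMIs in noradrenaline chromaffin-like cells, or 177 CPM (155 to 201), and 263 in the far more numerous adrenaline chromaffin-like cells, or 35.7 CPM (31.5 to 40.3). The level was thus 4.94-fold higher in noradrenaline cells (4.13 to 5.92). The 3 adrenaline clusters had 32.8, 36.3 and 43.2 CPM, and the interval of each lay below that of noradrenaline cells.

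At equal depth the same was seen per cell. With each cell thinned to 1000 UMIs, 12.6% of 365 noradrenaline cells had an *Epas1* UMI (9.38 to 16.5), against 2.59% of 1659 adrenaline cells (1.88 to 3.48). Thinning left out 23 and 11 shallower cells. Without it the shares were 34.8% and 11.5%, at median depths of 2646.5 and 3161.5 UMIs. In X-zone-like cells, the class with the least *Epas1*, 1.00% of thinned cells had a UMI (median depth 4813 UMIs), and the adrenaline share was above this.

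Since *Epas1* is abundant in endothelium and in pericytes, their markers were examined in the noradrenaline cells. The 8 endothelial markers summed to 21.3 CPM there and to 35.5 CPM in adrenaline cells, against 8548 CPM in endothelial-like cells. Of 8 mural markers 4 were at 0 in noradrenaline cells, *Pdgfrb* among them, though *Rgs5* was found in 11.9% of the cells and the list summed to 95.9 CPM against 24.3 CPM in adrenaline cells. In the 304 noradrenaline and 1317 adrenaline cells without a UMI of any of these 16 markers, *Epas1* was 147 CPM (123 to 174) and 37.9 CPM (32.7 to 43.6), a ratio of 3.88.

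Over all 13 classes *Epas1* ran from 13.3 CPM in X-zone-like cells (11.2 to 15.7) to 292 CPM in the fibroblast-like class (232 to 362), which also carried endothelial transcripts. Endothelial-like cells came next with 203 CPM (189 to 217), followed by noradrenaline, cycling endothelial-like (162 CPM) and transitioning-like cells (150 CPM). These neighbours in the order did not differ beyond their counting intervals, though the endothelial-like interval lay above that of transitioning-like cells (135 to 165). The step from transitioning-like to cycling chromaffin-like cells (85.5 CPM) was 1.75-fold (1.37 to 2.25). Macrophage-like cells had 27.6 CPM. Adrenaline cells stood low in this order, between the glial-marker cluster with 9 UMIs and macrophage-like cells.

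Within the cortex *Epas1* differed between zones. It was 60.2 CPM in fasciculata-like cells (54.1 to 66.8), 4.52-fold above X-zone-like cells (3.70 to 5.54), and 78.8 CPM in the *Wnt4*-high cluster (71.1 to 87.2). The *Wnt4*-high cluster also carried endothelial transcripts, with the 8 markers summing to 1101 CPM against 18.8 CPM in X-zone-like and 36.2 CPM in fasciculata-like cells. Among its 445 cells with no endothelial or mural marker UMI, *Epas1* was 40.05 CPM (32.2 to 49.2), compared with 58.6 CPM in such fasciculata-like and 13.4 CPM in such X-zone-like cells. The fasciculata-like level was therefore as high without vessel markers, and the *Wnt4*-high level was not.

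*Hif1a* (chr12:73901375-73947530), which codes for HIF-1α, the alpha subunit found in nearly all cells, was spread more evenly. It was detected in every class, between 49.6 CPM in cycling chromaffin-like and 157 CPM in endothelial-like cells (145 to 169). Adrenaline cells had 51.4 CPM (46.3 to 56.8) and noradrenaline cells 61.7 CPM (49.0 to 76.7), a ratio of 1.20 (0.933 to 1.53). From macrophage-like cells (88.02 CPM) downwards no pair of neighbouring classes differed beyond the counting interval, but some classes further apart did. The intervals of macrophage-like (72.7 to 106) and *Wnt4*-high cells (65.8 to 81.3) lay above that of adrenaline cells. In *Wnt4*-high cells with no endothelial or mural marker UMI, however, *Hif1a* was 63.2 CPM (53.2 to 74.5). This interval overlapped that of such adrenaline cells, at 51.4 CPM (45.3 to 58.0). The ratio of chromaffin-like to cortex-like cells was 0.813 (0.730 to 0.904). Endothelial-like cells exceeded chromaffin-like cells of both kinds 2.96-fold (2.62 to 3.34) and cortex-like cells 2.41-fold (2.19 to 2.64).

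*Hif3a* (chr7:17031507-17062427) codes for another alpha subunit, with forms known to restrain the others, and was scarce, with 113 UMIs in all cells. In the glial-marker cluster 8 UMIs in 8 of 179 cells gave 34.6 CPM (14.9 to 68.2), 13.1-fold above chromaffin-like cells (5.05 to 30.2). The level was 1.97 times that of fibroblast-like cells, with an interval of 0.568 to 7.66. Fibroblast-like cells had 17.6 CPM from 5 UMIs and macrophage-like cells 11.5 CPM from 15. The class with the most *Hif3a* UMIs was endothelial-like, with 29, or 7.05 CPM (4.72 to 10.1). Chromaffin-like cells had 23 UMIs, or 2.65 CPM (1.68 to 3.98). Only 3 UMIs were counted in 3355 cortex-like cells, or 0.142 CPM (0.0293 to 0.415), and the ratio of chromaffin-like to cortex-like cells was 18.7 (5.64 to 97.1).

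*Arnt* (chr3:95434388-95497240), the beta subunit shared by the HIF proteins and the dioxin receptor, was between 17.3 and 29.4 CPM in all 13 classes. No neighbours in the order of its levels differed beyond counting error, but some classes further apart did. Endothelial-like cells were 1.48-fold above chromaffin-like (1.17 to 1.88) and 1.30-fold above cortex-like cells (1.06 to 1.59). X-zone-like cells were 1.46-fold above fasciculata-like cells (1.16 to 1.85). Between chromaffin-like and cortex-like cells the ratio was 0.878 (0.733 to 1.05). The *Arnt* paralog *Arnt2*, a beta subunit known from neurons, was a chromaffin transcript in this library. *Arnt2* levels follow. It had 107 CPM in adrenaline cells (99.2 to 114), 111 CPM in noradrenaline cells (93.9 to 131) and 109 CPM in transitioning-like cells, against 1.52 CPM in cortex-like cells (1.04 to 2.14) and 1.22 CPM in endothelial-like cells. The chromaffin-like level was 70.7-fold that of the cortex (49.8 to 104), and 31.7% of chromaffin-like cells had an *Arnt2* UMI against 0.894% of the deeper cortex-like cells. The glial-marker cluster had 5 *Arnt2* UMIs, or 21.6 CPM.

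The hydroxylases that oppose HIF differed from each other in their distribution. *Egln1* (chr8:124908587-124949324) codes for PHD2, the main oxygen sensor of most cells, and was found in all classes, from 31.4 CPM in macrophage-like to 87.8 CPM in fibroblast-like cells. Its ratio between noradrenaline and adrenaline cells was 0.929 (0.689 to 1.23). Between chromaffin-like and cortex-like cells the ratio was 0.918 (0.816 to 1.03). Within the cortex, X-zone-like cells were 1.37-fold above fasciculata-like cells (1.18 to 1.60).

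*Egln3* (chr12:54178981-54203860), coding for PHD3, whose transcript is itself a known HIF target, was found mostly in endothelial-like cells. Of its 112 UMIs, 52 were in endothelial-like cells, or 12.6 CPM (9.45 to 16.6), and 13 in cycling endothelial-like cells. Chromaffin-like cells had 2 UMIs in 2058 cells, or 0.231 CPM (0.0279 to 0.833). The ratio of 54.9 rests on these 2 UMIs and had an interval of 14.4 to 465. Neither noradrenaline nor cycling chromaffin-like cells had any, with limits of 2.28 and 3.17 CPM from a count of 3. Fibroblast-like cells had 4 UMIs, or 14.1 CPM (3.83 to 36.0).

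*Ndufa4l2* and *Pdk1* lie downstream. *Ndufa4l2* (chr10:127514967-127517154) codes for a mitochondrial protein that resembles a subunit of complex IV and is known to lower respiration in hypoxia. Noradrenaline cells had 2254 CPM (2173 to 2337) from 2960 UMIs, transitioning-like cells 1336 CPM (1291 to 1381), adrenaline cells 959 CPM (937 to 981) and cycling chromaffin-like cells 741 CPM (687 to 798). Each of these 4 differed from the next beyond counting error. Noradrenaline cells exceeded adrenaline cells 2.35-fold (2.25 to 2.45), and the ratio was 2.42 in cells with no endothelial or mural marker.

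Against cortex-like cells, with 102 UMIs and 4.83 CPM (3.94 to 5.87), the chromaffin-like level of 1155 CPM was 239-fold higher (197 to 293), and 381-fold in thinned cells. It was 148-fold above endothelial-like cells (105 to 217). Of chromaffin-like cells 90.8% had a *Ndufa4l2* UMI, and of cortex-like cells, which were deeper, 2.24%. In thinned cells the shares were 86.0% for noradrenaline, 66.0% for transitioning-like, 59.0% for adrenaline and 0.328% for cortex-like cells. A thinned noradrenaline cell had a median of 2 *Ndufa4l2* UMIs and an adrenaline cell 1.

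The low counts outside the medulla can be set beside those of *Chgb*, a granule protein of chromaffin cells. Per 100 *Chgb* UMIs there were 1.76 *Ndufa4l2* UMIs in adrenaline cells, 3.76 in noradrenaline cells and 4.13 in transitioning-like cells. Cortex-like cells had 4.32, endothelial-like cells 6.94, macrophage-like cells 4.67 and the glial-marker cluster 4.56. The shares of cells with a *Ndufa4l2* UMI in the cortical, endothelial and macrophage classes were all low, from 1.60% to 3.61%. Within these groups the ratio to *Chgb* differed, at 5.87 in X-zone-like and 3.63 in fasciculata-like cells and at 2.64 in cycling cortex-like and 2.57 in cycling endothelial-like cells. The glial-marker cluster also had 3128 CPM of the 7 chromaffin markers in sum. What part of these counts was free RNA was not tested. Fibroblast-like cells had the highest value, 19.4 *Ndufa4l2* per 100 *Chgb* UMIs.

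In these 89 fibroblast-like cells *Ndufa4l2* was 397 CPM (327 to 477) and 62.9% of the cells had a UMI. *Ndufa4l2* is also known as a transcript of pericytes, the contractile cells that wrap capillaries, and 1 of the 8 mural markers was found in at least 50% of the cells of this cluster. In the 62 cells with a UMI of *Rgs5*, *Notch3*, *Pdgfrb* or *Cspg4* the level was 413 CPM (335 to 502). The 27 cells without had 313 CPM (171 to 525), and the intervals overlapped. This split was chosen after the values had been seen. The endothelial list summed to 4388 CPM in this cluster, and its part in the *Epas1* level was not tested.

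*Pdk1* (chr2:71873224-71903858) codes for a kinase that shuts pyruvate out of mitochondria by switching off pyruvate dehydrogenase. It was highest in endothelial-like cells with 34.8 CPM (29.3 to 41.0) and in cycling endothelial-like cells with 32.5 CPM (24.3 to 42.6). Chromaffin-like cells had 10.8 CPM (8.76 to 13.3), 3.21-fold less (2.46 to 4.21). Noradrenaline and adrenaline cells had 12.2 and 10.6 CPM, with a ratio of 1.15 (0.626 to 1.99). Between X-zone-like and fasciculata-like cells *Pdk1* ran opposite to *Epas1*, with 13.1 and 5.32 CPM, a ratio of 2.47 (1.66 to 3.77). The *Wnt4*-high cluster had 7.02 CPM (4.86 to 9.81).

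Between noradrenaline and adrenaline chromaffin-like cells, 2 of the 6 members with at least 50 UMIs over both classes differed at least 2-fold, *Epas1* and *Ndufa4l2*, and both were higher in noradrenaline cells. Of all 9714 genes with that many UMIs, 11.3% passed the same limit in either direction, with 4.59% higher and 6.71% lower in noradrenaline cells. *Hif3a* and *Egln3*, with 23 and 2 UMIs, were too scarce to count. Endothelial-like against chromaffin-like cells differed for 6 of 8 members, with *Epas1*, *Hif1a*, *Hif3a*, *Egln3* and *Pdk1* higher and *Ndufa4l2* lower, where 43.8% of 11176 genes passed, 19.9% higher and 23.8% lower. Chromaffin-like against cortex-like cells differed for 1 of 6, *Ndufa4l2*, where 43.3% of 12341 genes passed, 22.5% higher and 20.9% lower. *Hif3a* and *Egln3* were too scarce to count here and in the glial-marker and transitioning-like comparisons below. Chromaffin-like over cortex-like ratios were 18.7 (5.64 to 97.1) for *Hif3a* and 0.270 (0.0304 to 1.13) for *Egln3*. Glial-marker over chromaffin-like ratios were 13.1 (5.05 to 30.2) and 18.8 (0.318 to 360). In the glial-marker cluster 1 of 6 members, *Ndufa4l2*, was past the limit against chromaffin-like cells (39.4% of genes), at 104 CPM and 11.1-fold lower (7.47 to 17.4). Among cells with at least 1000 genes and up to 10% mitochondrial UMIs this ratio moved from 0.0899 to 0.19998. Under the same limits 4 members in place of 6 were counted between endothelial-like and chromaffin-like cells, where 2163 of 10886 genes were higher and 2628 lower. No member ratio of this comparison crossed the 2-fold limit in the alternatives. In the main setting *Hif3a* (29 and 23 UMIs) and *Egln3* (52 and 2 UMIs) were just above the minimum of 50 UMIs over both classes. Transitioning-like against chromaffin-like cells differed for 1 of 6, *Epas1*, at 2.62-fold (2.286 to 3.001), where 7.95% of 10547 genes passed, with 5.78% higher in transitioning-like cells. Most chromaffin-like cells were adrenaline cells (1670 of 2058), and against noradrenaline cells alone the *Epas1* ratio was 0.846 (0.717 to 1.001). In the 263 of 414 transitioning-like cells with no endothelial or mural marker UMI, *Epas1* was 125 CPM (107 to 144), against 54.6 CPM in such chromaffin-like cells. This selection did not cover the 6 fibroblast markers, which summed to 275 CPM in all transitioning-like and 5.65 CPM in all chromaffin-like cells. Their part in the *Epas1* level was not tested.

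**Figure D2:**
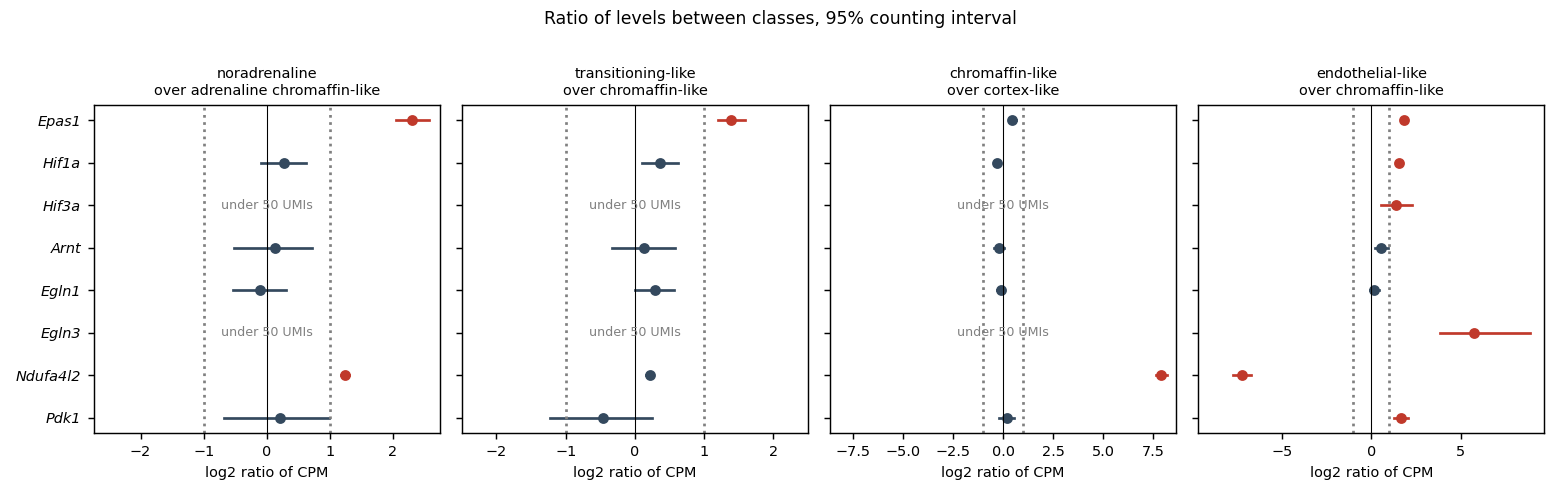
Log2 ratio of CPM (x axis) of each gene (rows) in 4 comparisons of cell classes. Points are ratios, lines 95% counting intervals, dotted lines the 2-fold limits, red marks ratios past them, and genes with under 50 UMIs over both classes have no point. *Epas1* (4.94-fold) and *Ndufa4l2* (2.35-fold) stand past the limit in noradrenaline over adrenaline cells.

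Within the transitioning-like class *Epas1* and *Ndufa4l2* differed between clusters. *Epas1* was 150 CPM (135 to 165) and *Ndufa4l2* 1336 CPM in the class as a whole. A finer clustering of the medullary cells (resolution 0.8) gave 2 transitioning-like clusters, 92 cells that all had *Pnmt* and 326 cells with *Pnmt* in 30.7%, which are not exactly the same cells as the 414. In the *Pnmt*-positive cells *Epas1* was 22.0 CPM (12.3 to 36.2) from 15 UMIs, and in the others 192 CPM (173 to 213). *Ndufa4l2* was 564 CPM (509 to 623) and 1590 CPM (1534 to 1647), respectively, which lay below adrenaline and noradrenaline cells in turn. *Hif1a* had 60.02 CPM (43.1 to 81.4) and 69.4 CPM (58.1 to 82.3), and the intervals overlapped. The intervals of *Egln1* overlapped too, at 48.3 and 58.9 CPM. The *Epas1* interval of the *Pnmt*-positive transitioning cells overlapped that of adrenaline cells, and the interval of the others overlapped that of noradrenaline cells.

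**Figure D3:**
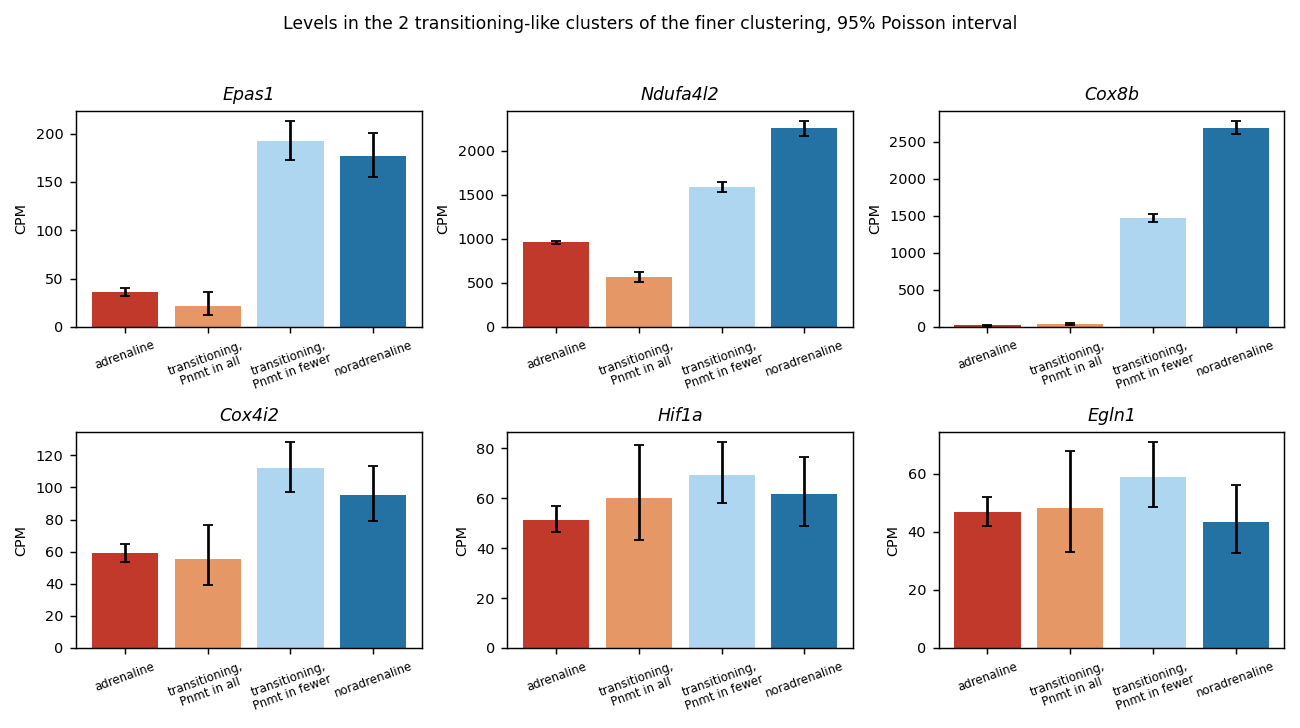
Levels (y axes, CPM) of *Epas1*, *Ndufa4l2*, *Cox8b*, *Cox4i2*, *Hif1a* and *Egln1* in adrenaline and noradrenaline chromaffin-like cells of the main clustering and in the 2 transitioning-like clusters of the finer clustering, 92 cells that all had *Pnmt* and 326 cells of which 30.7% had it. Bars are UMIs per 1000000 UMIs and error bars 95% Poisson intervals. *Epas1* is 22.0 CPM in the first and 192 CPM in the second transitioning-like cluster.

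Whether single cells with *Epas1* also had more *Ndufa4l2* was examined in thinned cells. In noradrenaline cells the mean was 2.30 *Ndufa4l2* UMIs in 46 cells with an *Epas1* UMI and 2.38 in 319 cells without. In adrenaline cells the means were 1.21 in 43 cells and 0.999 in 1616 cells, and in transitioning-like cells 1.52 in 46 and 1.33 in 366. At this depth a cell without an *Epas1* UMI may still hold the transcript.

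The carotid body senses oxygen acutely through a set of mitochondrial and membrane proteins that are themselves thought to depend on HIF-2α, and 8 genes named for this were examined. Against the cortex 5 of the 7 with enough UMIs were at least 2-fold higher in chromaffin-like cells and 2 lower, with a median log2 ratio of 2.98 against 0.01 over all genes (22.5% of genes higher, 20.9% lower). *Cox4i2*, the hypoxia form of a subunit of cytochrome c oxidase, had 59.2 CPM in adrenaline cells (53.8 to 65.1) and 95.2 CPM in noradrenaline cells (79.2 to 113), against 1.23 CPM in cortex-like cells, 52.5-fold less than in chromaffin-like cells (35.5 to 81.1). It was as high in the glial-marker cluster, with 22 UMIs and 95.2 CPM (59.7 to 144), and had 59.7 CPM in fibroblast-like cells.

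*Cox8b*, another subunit form, was the most divided between the catecholamine classes. There were 3525 *Cox8b* UMIs in noradrenaline cells, or 2684 CPM, and 159 in adrenaline cells, or 21.6 CPM, a ratio of 124 (106 to 147). In the finer clustering it was 39.5 CPM in *Pnmt*-positive transitioning-like cells and 1472 CPM in the others. *Cox8b* helped to place cells in these clusters, as did every variable gene, so its ratio is a description.

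Both transcripts most closely tied to glomus cells of the carotid body were seen here at very low counts. *Olfr78*, an odorant receptor, had 57 UMIs in chromaffin-like cells, or 6.57 CPM (4.98 to 8.51), and 31 more in transitioning-like and cycling chromaffin-like cells. It was at 0 in cortex-like, endothelial-like, macrophage-like and fibroblast-like cells. The chromaffin-like level of *Olfr78* was 46.2-fold the limit of 3 UMIs in cortex-like cells, a value that leaves out the counting error of the chromaffin-like level. *Higd1c*, a mitochondrial protein gene, had 30 UMIs in chromaffin-like cells, or 3.46 CPM (2.33 to 4.94), and none in cortex-like cells. Its level was 24.3-fold the same limit, again without counting error.

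Among the channel genes, *Kcnk9* (TASK-3) was 7.89-fold higher in chromaffin-like than in cortex-like cells (7.09 to 8.79), at 168 and 21.3 CPM. *Kcnk3* (TASK-1) was in contrast highest in the cortex, with 1379 CPM in fasciculata-like and 1654 CPM in *Wnt4*-high cells but 234 CPM in X-zone-like cells. Chromaffin-like cells had 182 CPM of *Kcnk3*, no less than their 168 CPM of *Kcnk9*. *Kcnma1*, the large-conductance calcium-activated channel, had 125 CPM in chromaffin-like and 36.1 CPM in cortex-like cells. *Pcx*, pyruvate carboxylase, known as abundant in glomus cells, was low in chromaffin-like cells, with 3.34 CPM against 100 CPM in cortex-like cells, 29.9-fold less (20.8 to 44.8). The common forms that *Ndufa4l2* and *Cox4i2* can replace were higher in the cortex, *Ndufa4* 2.33-fold (2.27 to 2.40) and *Cox4i1* 2.15-fold (2.10 to 2.19).

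**Figure D4:**
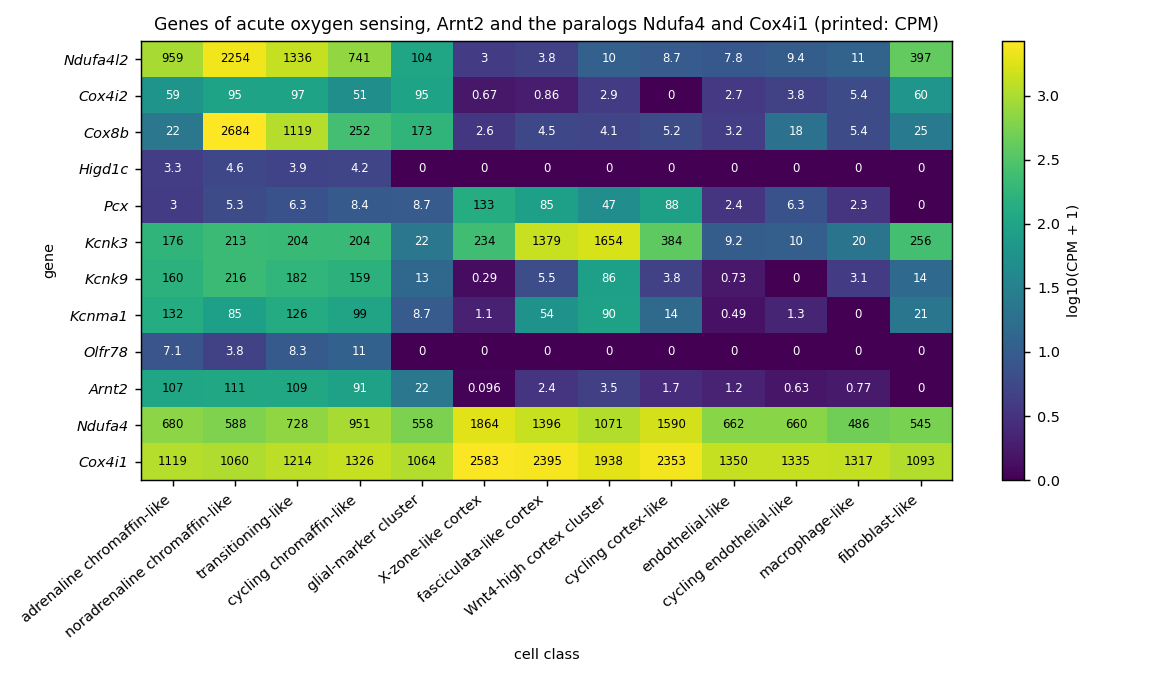
Levels of 12 genes (rows) in 13 cell classes (columns), coloured by log10(CPM + 1) and printed as CPM. *Olfr78* and *Higd1c* are at 0 outside the 4 classes with chromaffin markers, *Cox4i2* is as high in the glial-marker cluster (95.2 CPM) as in noradrenaline cells, *Cox8b* reaches 2684 CPM in noradrenaline and 21.6 CPM in adrenaline cells, and *Kcnk3* and *Pcx* are highest in cortical classes.

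The list for HIF hydroxylation and degradation also holds genes that act on the hydroxylases and not on HIF, such as *Siah1a*. Of its 9 measured genes, 0 passed 2-fold between noradrenaline and adrenaline cells (11.3% of all genes). Of 10 measured between chromaffin-like and cortex-like cells 1 did, *Siah2*, at 5.19 and 11.6 CPM (43.3% of all genes). Between the glial-marker cluster and chromaffin-like cells 2 of 9 measured passed (39.4% of all genes), *Siah1a* at a ratio of 3.53 (2.17 to 5.47) and *Vhl*, from 1 UMI in the cluster, at 0.357 with a counting interval of 0.00897 to 2.04. *Vhl* was between 3.51 and 19.7 CPM in the 13 classes. In endothelial-like cells *Siah1a*, a ubiquitin ligase for the hydroxylases, was 2.29-fold higher than in chromaffin-like cells (1.91 to 2.75). *Cited2*, which competes with HIF for its coactivators, was 383 CPM in cortex-like, 171 CPM in chromaffin-like and 37.2 CPM in endothelial-like cells.

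Glycolysis genes that are known HIF targets were examined next. Of the 14 measured between noradrenaline and adrenaline cells, 1 was at least 2-fold higher and 2 lower (4.59% and 6.71% of all genes), with a median log2 ratio of 0.36 against 0.00 over all genes. *Ldha*, lactate dehydrogenase, was 2.50-fold higher in noradrenaline cells (2.20 to 2.83), whereas *Pgk1* was 2.75-fold lower (2.34 to 3.24) and *Pfkfb4* 2.41-fold lower (1.27 to 5.14). Between chromaffin-like and cortex-like cells 5 of 18 were higher and 5 lower, at a median log2 ratio of -0.21, where 22.5% of all genes were higher and 20.9% lower. Members of the same step divided between the tissues. *Hk1* had 61.3 CPM in chromaffin-like and 8.67 CPM in cortex-like cells, and *Hk2* 2.998 and 60.3 CPM. The glucose transporter *Slc2a3* was 84.9-fold higher in chromaffin-like cells (51.8 to 150).

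Of 15 other known HIF targets measured between noradrenaline and adrenaline cells, 1 passed the limit where 11.3% of all genes did. This was *Vegfa*, at 39.6 and 18.2 CPM (2.17-fold, 1.55 to 3.02). *Adm*, coding for the vasodilator peptide adrenomedullin, had 114 CPM in chromaffin-like against 1.42 CPM in cortex-like cells, 80.4-fold (56.0 to 120), with 111 CPM in adrenaline and 131 CPM in noradrenaline cells. *Bnip3*, a mitophagy receptor, was 3.79-fold lower in chromaffin-like than in cortex-like cells (3.49 to 4.13) and reached 383 CPM in X-zone-like cells. In endothelial-like cells 6 of 19 were higher and 8 lower than in chromaffin-like cells (19.9% and 23.8% of all genes), *Tek* and *Nos3* among the higher, which are endothelial genes by other criteria as well. *Ndrg1* was 20.3-fold higher in transitioning-like than in chromaffin-like cells (14.8 to 28.5) and reached 485 CPM in the glial-marker cluster, in 43.6% of its cells. Sustentacular markers were used to name the transitioning-like class, and their part in the *Ndrg1* ratio was not tested. *Hmox1* was 12.5-fold higher in transitioning-like cells (6.80 to 24.4), but its UMIs came from 3.62% of them. *Epo*, the hormone gene that first defined the pathway, had 0 UMIs in all 13 classes.

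Genes of the dissociation response were high in some of the same classes. The 9 listed genes summed to 726 CPM in X-zone-like, 1257 CPM in fasciculata-like, 3667 CPM in chromaffin-like, 4084 CPM in endothelial-like, 5282 CPM in *Wnt4*-high and 5958 CPM in glial-marker cells. Noradrenaline and adrenaline cells had sums of 3966 and 3613 CPM, but the ratios of single genes went both ways. *Atf3* was 2.34-fold (1.97 to 2.77) and *Fosb* 1.91-fold (1.70 to 2.13) higher in noradrenaline cells and *Egr1* 2.15-fold lower (1.98 to 2.33). The median log2 ratio of the list was 0.51 against 0.00 over all genes. The part of this response in the levels of *Hif1a* and *Epas1* was not tested. Without the adrenaline cluster led by immediate-early genes the noradrenaline to adrenaline ratio of *Epas1* was 5.01.

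By the likeness of levels across 16 clusters (Pearson's r of log2(CPM + 10), a description of clusters from 1 library), *Ndufa4l2* was most like *Pde3a* (0.990), *Gprasp2* (0.986) and *Stmn2* (0.984). *Epas1* was most like *Igfbp5* (0.904), *Hoxa7* (0.895) and *Etl4* (0.885). *Hif1a* was nearest to *Arrb1* (0.968), *Fmnl3* (0.961) and *Rnf122* (0.960), and *Egln3* to *Cracr2b* (0.976), *Fgd5* (0.974) and *Tns2* (0.972). *Hif3a* stood with *Sirt2* (0.938), *Ppip5k2* (0.901) and *Orai1* (0.895), and *Pdk1* with *Slk* (0.892), *Tmx3* (0.884) and *Cr1l* (0.882). *Egln1* was nearest to *Dcaf17* (0.884), *Prss23* (0.863) and *Bmp1* (0.849). *Arnt* had no gene above 0.797 (*Nrbf2*, followed by *Eef2* and *Cd47*). Among the members themselves *Hif1a* and *Egln3* were the closest pair (0.931), followed by *Egln3* and *Pdk1* (0.759) and *Hif1a* and *Pdk1* (0.740).

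*Hif1a*, *Egln3* and *Pdk1*, like *Epas1* and *Hif3a*, were higher in endothelial-like than in chromaffin-like cells. For the first 3, the closest members by level, the 250 bases before their RefSeq start sites (GRCm38.p6) are shown. HIF binds a short core, and the letters ACGTG or GCGTG were searched on both strands (CACGT or CACGC on the strand shown), with matches in capitals.
*Hif1a*, chr12:73907617-73907866, plus strand: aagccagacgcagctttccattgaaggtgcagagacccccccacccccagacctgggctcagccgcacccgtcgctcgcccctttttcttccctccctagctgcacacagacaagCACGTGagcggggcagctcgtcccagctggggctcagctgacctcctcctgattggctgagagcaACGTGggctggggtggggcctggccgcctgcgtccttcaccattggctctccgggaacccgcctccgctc
*Egln3*, chr12:54203875-54204124, minus strand: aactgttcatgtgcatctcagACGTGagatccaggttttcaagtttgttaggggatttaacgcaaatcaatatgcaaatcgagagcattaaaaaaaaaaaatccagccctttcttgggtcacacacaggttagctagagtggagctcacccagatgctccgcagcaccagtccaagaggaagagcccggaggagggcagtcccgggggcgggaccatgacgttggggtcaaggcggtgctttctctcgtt
*Pdk1*, chr2:71872974-71873223, plus strand: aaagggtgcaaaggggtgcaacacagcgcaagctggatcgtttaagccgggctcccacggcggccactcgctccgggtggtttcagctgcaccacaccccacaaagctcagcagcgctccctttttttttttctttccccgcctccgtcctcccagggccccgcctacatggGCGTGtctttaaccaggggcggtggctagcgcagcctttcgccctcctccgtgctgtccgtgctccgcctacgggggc
The *Hif1a* window holds 3 matches, 2 of them overlapping in one palindrome that begins 135 bases before the start, and the third begins 70 bases before it. *Egln3* has 1 match at 229 bases and *Pdk1* 1 at 78 bases, while a second *Pdk1* window, at an inner start site, has 0. *Hif3a* and *Egln1* hold 2 matches each and *Arnt* 1. Of all 32851 windows of this length, 38.6% hold at least 1 match and 16.7% at least 2, so that a match is common and describes the letters only. The RefSeq table holds windows for 6 of the 8 members, and *Epas1* and *Ndufa4l2* are not among them.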

How the data were processed

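The deposited values are raw UMI counts per gene and barcode of 1 library (10X Genomics 3′ v3.1 chemistry), deposited by the authors without normalization. Per the labels, the tools were Cell Ranger 4.0.0 and the build mm10. UMIs near the 3′ end do not separate transcript forms. *Hif1a*, *Arnt*, *Hif3a*, *Epas1* and *Ndufa4l2* overlap other annotated genes in GENCODE M21, and whether reads were split between them is not given in the sources used here. The sorted library of the study is not analysed here.

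Cells with 500 to 5000 genes and at most 20% mitochondrial UMIs were clustered with Seurat 5.3.0 (R 4.3.3; 2000 variable features, 10 principal components, Louvain resolution 0.4), and the medullary clusters were clustered again until none held 3 or more markers of another type, each in 50% of cells (3 passes). Naming a cluster needed 3 markers of a type, each detected in 50% of its cells or more (25% for sustentacular and cycling markers). Scrublet (scanpy 1.11.5, expected rate 8%) called 669 cells (6.60%) doublets, of which 500 were among the 773 cells left without a class. Doublets were not removed.

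UMIs were summed per class and divided by the UMIs of the class. Intervals at 95% are exact (Poisson for levels, Clopper-Pearson for shares, conditional binomial for ratios), and a count of 0 was given a limit of 3 counts. A gene was counted as different at a ratio of at least 2 or at most 0.5 with at least 50 UMIs over both classes. Shares were compared after thinning cells to 1000 UMIs. The calculation of ratios was tested on simulated counts with 200 changed genes. Named genes are the members, the genes of fixed lists and, for each member, the 3 genes with the most similar levels among those with at least 500 UMIs. The members and lists were chosen with earlier results of these data known. Alternatives changed the clustering, filters, totals, thinning, fold and UMI limits. Removal of the immediate-early cluster, thinned levels and cells without vessel markers were added after seeing the data. Calculations used Python 3.11.15, numpy 2.4.6, scipy 1.17.1 and pandas 2.3.3, and figures matplotlib 3.10.9.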

Additional observations from a re-analysis of the deposited data

How the results depend on the processing

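No paired analysis was possible because there is 1 library. Each ratio of a member was recomputed under up to 10 alternatives, 365 values in all, and 344 stayed within the interval first given, 21 moved outside it and 0 changed direction among those past 2-fold. Some ratios within 2-fold did change side. The *Egln1* ratio of glial-marker to chromaffin-like cells went from 1.68 to 0.445 (0.0112 to 2.49) under stricter cell limits. Noradrenaline to adrenaline ratios ranged from 0.878 to 1.20 for *Arnt* and from 0.897 to 1.23 for *Egln1*. The noradrenaline to adrenaline ratio of *Ndufa4l2* ranged from 2.30 to 2.42 and that of *Epas1* from 3.88 to 5.18, the lowest in cells with no endothelial or mural marker UMI. The ratio of *Ndufa4l2* between chromaffin-like and cortex-like cells moved to 294 at resolution 0.8, to 381 in thinned cells and to 338 in cells without vessel markers. The endothelial-like to chromaffin-like ratio of *Epas1* was 3.15 as the mean over cells. The glial-marker cluster had 3 members past 2-fold, in place of 1, both under stricter cell limits (1000 genes or more, mitochondrial UMIs up to 10%) and after thinning, and transitioning-like cells 2 after thinning. Under the stricter limits 1629 of 9548 genes were at least 2-fold higher and 3813 lower in the glial-marker cluster than in chromaffin-like cells. Noradrenaline against adrenaline cells had 3 in place of 2 after thinning, and endothelial-like cells 4 in place of 6 under the stricter limits. There 2163 of 10886 genes were higher and 2628 lower in endothelial-like cells, and no member ratio of that comparison crossed 2-fold. For thinned cells the shares of all genes are not given. Each count after thinning includes *Pdk1*, which then had under 50 UMIs over both classes. A *Pdk1* UMI was found in 5 of 365 thinned noradrenaline and 11 of 1659 thinned adrenaline cells, at a ratio of 2.07 (0.563 to 6.45). The thinned counts thus do not meet the minimum and do not show more members past 2-fold at equal depth. In all 7 ratios crossed the 2-fold limit, *Epas1*, *Egln1*, *Egln3*, *Hif3a* and *Pdk1* among them. The counting intervals of these 7 ratios included 1, except that of *Epas1* in the thinned glial-marker cluster (0.00417 to 0.948). Leaving mitochondrial and the 50 most abundant genes out of the totals shifted the median log2 ratio of all genes from 0.00 to -0.14 for endothelial-like over chromaffin-like cells and from -0.26 to -0.38 for the glial-marker cluster, whose few UMIs limit every value there. Of 16 repeats of the similar genes, 9 kept at least 2 of the 3 genes.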
